A study of Mus musculus with 23 samples.

Results

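Integrins and laminins are the receptors and ligands by which cells hold on to matrix and to each other. Their genes were followed here in the RNA of mouse bone. The set was 36 subunit genes, 26 of integrins and 10 of laminins, found by gene symbol in a table of 17644 genes. Of these, 35 had at least 10 counts in at least 5 libraries and were tested among 14364 such genes. The remaining gene was Itgb8, which reached 10 counts in only 2 libraries and had at most 11 counts in any library.

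RNA came from femur and tibia of 23 female C57BL6/N mice aged 11 weeks, depleted of marrow, with 1 library per mouse. The groups were wild-type mice given saline (WT Control, n = 5), wild-type mice made diabetic with streptozotocin (WT T1D, n = 6), and the same pair of treatments in mice labelled as global Sarm1 knockouts (KO Control, n = 6, and KO T1D, n = 6). Streptozotocin, which destroys the insulin-producing β cells, was given at 100 mg/kg per injection, with repeated injections per the study's methods. T1D had lasted 3 weeks. In the study as a whole the KO line was bred from heterozygous parents, and matched wild-type mice were also bought in. The labels do not say whether any of the 11 WT libraries came from bought mice. Sarm1 itself had 5 to 32 counts per library, with overlapping ranges in all 4 groups, so this transcript count did not check the KO label. Vtn (vitronectin), whose gene lies beside Sarm1, did separate the labels, at 0.347 to 3.43 CPM (defined below) in the 11 WT libraries and 12.1 to 21.0 CPM in the 12 labelled KO.

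An integrin is a pair of an α and a β subunit that crosses the membrane, and the α subunit largely sets the ligand. β1 pairs with the receptors for collagen, laminin, and fibronectin, β3 and β5 with receptors for RGD-bearing ligands such as vitronectin and osteopontin, and β2 and β7 with α subunits of leukocytes. Laminins are trimers of an α, a β, and a γ chain that form the sheet of basement membranes around vessels, nerve, muscle, and fat. In bone, αvβ3 is the adhesion receptor of osteoclasts, β1 integrins hold osteoblasts to collagen, and αIIbβ3 is the fibrinogen receptor of platelets and megakaryocytes.

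Total counts were 16938101 to 20135592 per library. Differences between mice are given as CPM, the counts of a gene relative to the library total after edgeR's TMM scaling, and levels of different genes are compared only as TPM, which corrects for length. WT T1D mice A3905 and A3906 stood apart from the rest. Their 8 osteoblast markers summed to 5421 and 4007 CPM, against 51889 to 116520 CPM in the other 21 libraries, and their 9 erythroid markers summed to 179380 and 177070 CPM, against 60143 to 131840 CPM. Their sums were also the highest for osteoclast, neutrophil, and adipocyte markers and the lowest for B cell, chondrocyte, dendritic cell, and megakaryocyte markers. No list had a marker at 0 in all libraries, and osteocyte markers were present in each library at 210 to 583 CPM in sum. In addition, 4 WT mice (1 Control and 3 T1D) had IDs beginning A17 and all other mice had IDs from A36 to A39, so results are also given without these mice where they matter.

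By TPM, the leukocyte and platelet subunits led the set. In WT Control bone, Itgb2 (β2) was highest at 185 ± 10.7 TPM (SD, n = 5), followed by Itgam (αM, with β2 the complement receptor of neutrophils and macrophages) at 132 ± 8.93 TPM. Itga2b (αIIb) at 90.5 ± 12.6 TPM, Itgb1 (β1) at 88.5 ± 16.3 TPM, and Itgb3 (β3) at 70.8 ± 8.20 TPM came next, and the first pair of these lay within their spread of each other. Itgal (αL, the lymphocyte partner of β2) was at 51.0 ± 2.04 TPM.

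The laminins were all lower than these. Lamb2 (laminin β2) at 22.8 ± 5.58 TPM and Lamc1 (laminin γ1) at 13.9 ± 2.55 TPM were the highest of the 10, and Lama4 (α4, the main endothelial α chain) at 6.15 ± 1.38 TPM was the highest α chain. Among collagen-binding α subunits, Itga10 at 22.8 ± 3.60 TPM and Itga11 at 14.9 ± 3.70 TPM exceeded Itga1 at 4.63 ± 0.960 TPM and Itga2 at 4.02 ± 0.542 TPM. The lowest genes were Itgb8 at 0.0940 ± 0.0958 TPM and Itgae (αE, the partner of β7 on epithelial lymphocytes) at 0.166 ± 0.111 TPM, followed by Lamb3, Itgb6, and Lama3, each with a mean under 1 TPM.

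**Figure D1:**
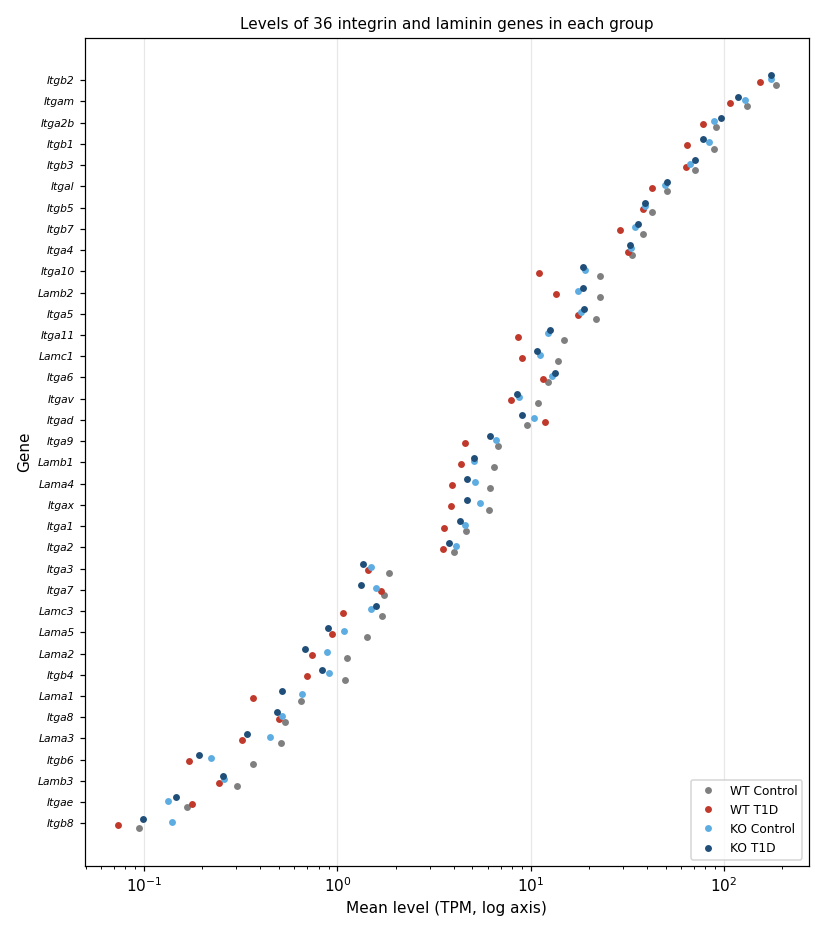
Mean TPM (horizontal log axis) of the 36 genes, ordered by the WT Control mean, with 1 point per group. Itgb2 and Itgam lie at the top at 185 and 132 TPM in WT Control, and Itgb8 lies at the bottom at 0.0940 TPM.

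The first question was what T1D changed in WT bone. No member passed the edgeR quasi-likelihood test with Benjamini-Hochberg adjustment over all genes, where 2.33% of all genes passed. At an unadjusted p under 0.05, 8 of 35 members differed (22.9%), which was close to the 22.2% of all genes. Of these, 7 were lower (20%, against 11.2% of all genes) and 1 was higher (2.86%, against 11% of all genes). The lower members were Itga10, Itgax, Lama4, Lamc1, Lamb2, Itga11, and Itga9, and the higher member was Itgad. The count of 8 became 4 without WT Control mouse A3903 or A3907, 5 without WT T1D mouse A3905, and 3 without A3906. It was 7 to 12 without any other single mouse. The share of all genes was 20% without A3903, 17.5% without A3907, 16.2% without A3905, and 15.9% without A3906. Without any other single mouse that share was 19.6% to 26.6%. DESeq2 called 1 member at an adjusted p under 0.05, Itgad, and 1002 of all 14364 genes. Limma on log2(TPM + 1) called 16, all lower, but on that scale the median of all genes was itself lower by 0.24 on the log2 scale and 5071 of the 5154 genes it called were lower.

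The families are described here by their medians, without a test. With T1D in WT, the median log2 fold change was -0.37 for the 10 laminins, of which 9 were lower, and -0.0033 for the 25 tested integrins, of which 13 were lower. Over all 14364 genes it was -0.011, with 51.9% lower. When A3905 and A3906 were left out the laminin median was -0.21, with 9 of 10 still lower, the integrin median was -0.077, and no gene of the whole table passed the adjusted threshold. In that fit the members with an unadjusted p under 0.05 were 3 lower and 4 higher, not 7 and 1, and the 3 lower were Itgav, Itga10, and Lama5. The counts over all 14364 genes in that fit were 807 lower and 768 higher.

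**Figure D2:**
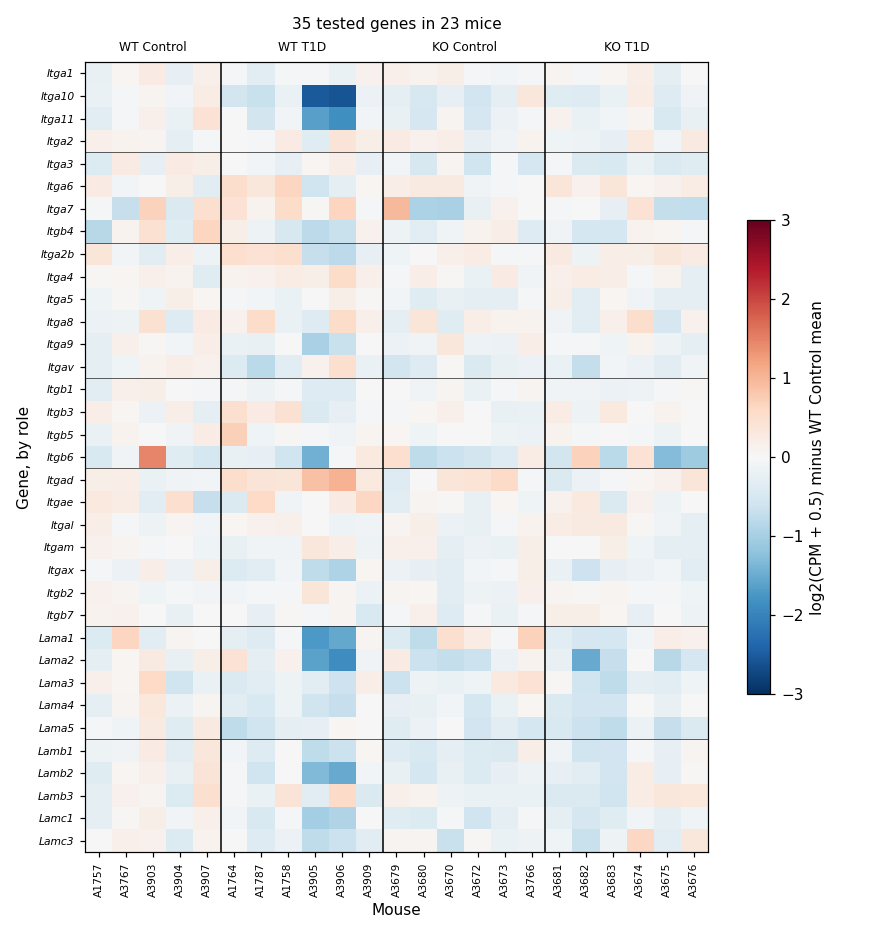
Each row is 1 of the 35 tested genes, grouped by role, and each column is 1 mouse. Color is log2(CPM + 0.5) minus the mean of the 5 WT Control mice (blue lower, red higher). The columns of A3905 and A3906 hold the darkest blue cells, in Itga10, Itga11, Lama1, and Lama2.

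Itgad, which encodes αD (Cd11d), a β2 partner found on macrophages of the spleen and marrow, was the only member whose WT groups did not overlap. It had 28.0, 28.4, 21.3, 22.7, and 23.1 CPM in the WT Control mice, and 30.1, 33.9, and 51.5 CPM as the lowest, median, and highest of WT T1D. All 6 WT T1D mice lay above all WT Control mice, a separation in this direction that 1.32% of all genes showed, while 0.877% showed the reverse and no member did. The highest WT T1D values were in A3905 and A3906, at 45.9 and 51.5 CPM, but the other 4 also lay above the Controls, at 30.1 to 35.6 CPM.

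The fold change of Itgad in WT was 1.53 (log2 fold change 0.61 ± 0.17 SE, adjusted p = 0.0523). In KO mice it was 18.8, 28.3, and 36.6 CPM in Control and 18.0, 24.5, and 31.7 CPM in T1D, with overlapping ranges (log2 fold change -0.19 ± 0.16 SE, adjusted p = 1). Its interaction had the smallest unadjusted p of the set but did not pass (-0.81 ± 0.23 SE, unadjusted p = 0.0021, adjusted p = 0.479). KO T1D mice were below WT T1D mice by 0.62 on the log2 scale (-0.62 ± 0.16 SE, adjusted p = 0.097), although KO Control mice reached 36.6 CPM, within the WT T1D range.

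The call on Itgad lay at the threshold and moved with the mice included. DESeq2 gave an adjusted p of 0.0148 for T1D in WT. Leaving out A3905 and A3906 gave a log2 fold change of 0.39 (adjusted p = 0.386), and among A36 to A39 mice alone it was 0.84 (adjusted p = 0.0188). In a fit that also held the erythroid score, which did not overlap between the WT groups, it was 0.11 (adjusted p = 1). Over all alternatives its adjusted p ranged from 0.0148 to 1, and leaving out any of mice A1757, A1764, A1758, A3909, or A3766 brought it under 0.05. Monocyte and macrophage markers, 8 genes of which none was at 0 in any library, summed to 1131 to 1432 CPM in WT Control and 1031 to 1206 CPM in WT T1D.

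Itgad sits in a row of leukocyte α genes on chromosome 7 (GRCm38.p6). Itgam spans chr7:128062640-128118491, Itgax spans chr7:128129526-128150657, and Itgad spans chr7:128173933-128205504, while Itgal lies apart at chr7:127296139-127335137. Its neighbour Itgax, which encodes αX (Cd11c) of dendritic cells and macrophages, had the opposite sign. Itgax was at 15.7, 14.1, 18.6, 14.3, and 18.4 CPM in WT Control, and at 8.27, 12.4, and 16.8 CPM as the lowest, median, and highest of WT T1D. The groups overlapped, with 4 of 6 WT T1D mice below all Controls and the lowest values in A3905 and A3906 (log2 fold change -0.39 ± 0.15 SE, adjusted p = 0.131).

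Dendritic cell markers, 5 genes with none at 0 in any library, summed to 53.3 to 71.5 CPM in WT Control and 33.8 to 59.1 CPM in WT T1D. They were lowest in A3905 and A3906, as Itgax was, and their part in the result was not tested. Without these mice the log2 fold change of Itgax was -0.20 (adjusted p = 0.61), and without WT T1D mouse A3909 it passed at an adjusted p of 0.0374, within a range of 0.0136 to 1 over the alternatives. Itgam had a log2 fold change of -0.0033 and Itgal of 0.014 in WT, and neither they nor the shared partner Itgb2 (0.028) or Itgb7 (-0.10) had an unadjusted p under 0.05 by edgeR. Itgae, at under 1 CPM in all mice, had a log2 fold change of 0.28 with an SE of 0.47.

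The collagen-binding α subunits all pair with β1. Itga10 encodes α10, a collagen receptor of chondrocytes, and Itga11 encodes α11, a fibrillar collagen receptor of fibroblasts and osteogenic stromal cells. The 250 bases before the start of each are shown because both genes had their own lowest values in the same mice, A3905 and A3906. Both are from the RefSeq promoter table of GRCm38.p6, on the + strand, at chr3:96645334-96645583 for Itga10 and chr9:62677605-62677854 for Itga11, with capitals for matches to 4 short motifs.
Itga10: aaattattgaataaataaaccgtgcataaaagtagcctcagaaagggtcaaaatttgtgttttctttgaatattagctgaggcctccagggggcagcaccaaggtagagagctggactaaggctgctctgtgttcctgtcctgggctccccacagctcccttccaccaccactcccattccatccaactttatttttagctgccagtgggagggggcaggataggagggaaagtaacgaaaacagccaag
Itga11: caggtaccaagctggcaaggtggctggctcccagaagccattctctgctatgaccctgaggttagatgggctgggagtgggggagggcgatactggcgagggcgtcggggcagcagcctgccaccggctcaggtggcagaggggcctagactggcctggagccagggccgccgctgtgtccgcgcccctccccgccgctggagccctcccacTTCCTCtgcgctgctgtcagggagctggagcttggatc

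The motifs searched on both strands were ACCACA (the RUNX core), GAGGAA (a PU.1 core), GGGCGG (the GC box), and TATAAA (the TATA box). Itga10 held none of them, with 48.0% G and C, and Itga11 held a PU.1 core on the reverse strand, with 68.4% G and C. The table held 26 starts of 23 members. Of these, 13 had the PU.1 core, which 23.3% of 32851 promoters had, 9 had the GC box (32.7% of all), 2 had the RUNX core (14% of all), and none had the TATA box (12.4% of all). These are matches of letters and show no binding.

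Itga10 was at 66.4, 74.4, 81.4, 72.1, and 90.0 CPM in the WT Control mice, and at 12.3, 50.1, and 67.4 CPM as the lowest, median, and highest of WT T1D. The values of A3905 and A3906, 13.0 and 12.3 CPM, lay far below all others, and 5 of 6 WT T1D mice were below all WT Control mice. The fold change was 0.561 (log2 fold change -0.83 ± 0.31 SE, unadjusted p = 0.0141, adjusted p = 0.123). In KO mice Itga10 was at 50.9, 62.7, and 97.4 CPM in Control and 58.1, 63.0, and 88.9 CPM in T1D, with overlapping ranges (0.03 ± 0.30 SE, adjusted p = 1). The interaction was 0.87 ± 0.43 SE (adjusted p = 0.497), and KO T1D exceeded WT T1D by 0.64 ± 0.30 SE on the log2 scale (unadjusted p = 0.0456, adjusted p = 0.285).

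Itga11 followed the same mice. It was at 37.9, 46.8, 53.2, 42.2, and 64.9 CPM in WT Control, and at 13.0, 39.2, and 47.6 CPM as the lowest, median, and highest of WT T1D. A3905 and A3906 had 15.1 and 13.0 CPM, and the other 4 WT T1D mice had 32.6 to 47.6 CPM, within or just below the Control range (log2 fold change -0.56 ± 0.25 SE, adjusted p = 0.196). In KO mice the Control range was 33.8 to 51.3 CPM and the T1D range 34.7 to 52.3 CPM (0.09 ± 0.24 SE, adjusted p = 1).

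Once A3905 and A3906 were removed, the estimate in WT was -0.40 for Itga10 (adjusted p = 0.367) and -0.19 for Itga11 (adjusted p = 0.691). Among A36 to A39 mice alone, where these were 2 of 3 WT T1D mice, it was -1.35 (adjusted p = 0.0316) and -1.06 (adjusted p = 0.0264). With the erythroid score, which did not overlap between the WT groups, in the fit it was 0.013 and 0.19 (adjusted p = 1 for both). The lowest adjusted p over the alternatives was 0.0139 for Itga10 and 0.0231 for Itga11, both from limma on TPM. Chondrocyte markers, 7 genes of which 1 was at 0 in some library, summed to 868 to 1950 CPM in WT Control and 200 to 1147 CPM in WT T1D, and to 200 and 230 CPM in A3905 and A3906. Osteoblast markers moved in the same mice, and in bulk RNA fewer cells of a type and less RNA per cell cannot be told apart. Itga1 and Itga2, which lie side by side on chromosome 13 and are also found on lymphocytes and platelets, had log2 fold changes of -0.094 ± 0.11 SE and 0.079 ± 0.14 SE.

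**Figure D3:**
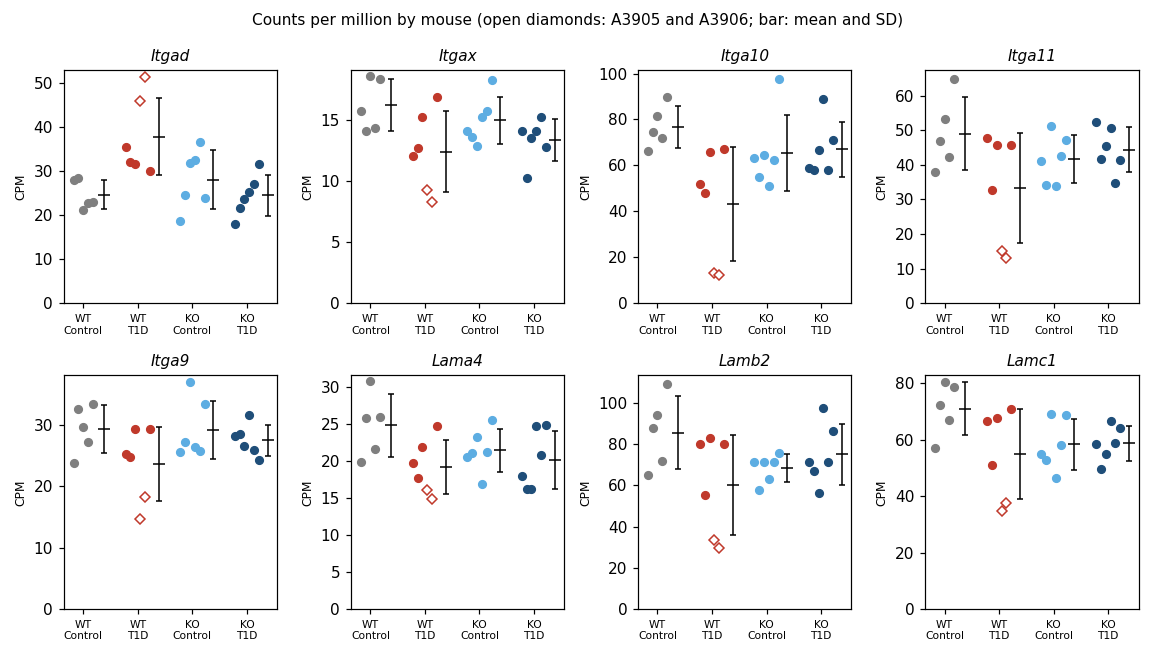
CPM by mouse for the 8 members with an unadjusted p under 0.05 for T1D in WT, with the mean and SD of each group beside its points. Open diamonds are WT T1D mice A3905 and A3906, which are the lowest WT T1D mice for each gene but Itgad, where they are the highest at 45.9 and 51.5 CPM.

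Of the RGD-binding and related α subunits, Itga9 and Itga5 met the rule for full description. Itga9 encodes α9, a receptor for tenascin-C, osteopontin, and VCAM-1. It was at 23.8, 32.6, 29.7, 27.3, and 33.4 CPM in WT Control and at 14.6, 25.0, and 29.4 CPM as the lowest, median, and highest of WT T1D. Only A3905 and A3906 lay below the Control range (log2 fold change -0.32 ± 0.15 SE, adjusted p = 0.208), and without them it was -0.11 (adjusted p = 0.771). The KO ranges were 25.6 to 36.9 CPM in Control and 24.2 to 31.5 CPM in T1D (-0.09 ± 0.14 SE, adjusted p = 1).

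Itga5 encodes α5, which with β1 is the main fibronectin receptor. It was at 57.7, 65.5, 57.7, 72.1, and 66.2 CPM in WT Control and 55.4, 62.9, and 71.8 CPM in WT T1D (log2 fold change -0.02 ± 0.09 SE, adjusted p = 0.936). KO Control mice had 49.1, 53.3, and 61.2 CPM as lowest, median, and highest, and KO T1D mice 51.0, 55.9, and 72.1 CPM, overlapping the WT values.

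Itga2b and Itgb3, the subunits of αIIbβ3, had no net difference in WT with all mice in the fit, but a wide spread. Itga2b was at 120 to 292 CPM in WT T1D, with A3905 and A3906 at the bottom at 127 and 120 CPM, and the 3 A17 mice with T1D at 279 to 292 CPM. The A17 Control mouse also had the highest Control value, 263 CPM, against 163 to 238 CPM in the other 4. Among A36 to A39 mice alone WT T1D was at 120 to 174 CPM. In that fit Itga2b passed the adjusted threshold for T1D in WT, as did 2205 of all 14364 genes. Megakaryocyte and platelet markers, 9 genes with none at 0 in any library, summed to 722 and 729 CPM in A3905 and A3906 and to 1616 to 1940 CPM in the 3 A17 mice with T1D. Their part in the spread was not tested. Itgb3, also the osteoclast partner of αv, was at 203 to 385 CPM in WT T1D, and Itgav (αv) at 29.7 to 72.4 CPM.

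In the edgeR fit without A3905 and A3906, the log2 fold changes were 0.30 for Itga2b, 0.28 for Itgb3, and -0.44 for Itgav. The unadjusted p values were 0.0478, 0.0269, and 0.00477, and the adjusted p values were 0.449, 0.388, and 0.302. The highest Itgav values of WT T1D, 57.1 and 72.4 CPM, were in A3905 and A3906, where osteoclast markers also summed to 4333 and 4639 CPM, against 1479 to 2950 CPM in the other 21 libraries. With all mice Itga2b had 0.031, Itgb3 0.10, and Itgav -0.14, each with an adjusted p of at least 0.651.

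Among the shared β subunits, Itgb1, the partner of most matrix receptors, had the lowest p. It was at 197, 273, 279, 246, and 238 CPM in WT Control and at 187, 227, and 243 CPM as the lowest, median, and highest of WT T1D. The ranges overlapped, with A3905 and A3906 alone below the Controls, at 187 and 188 CPM (log2 fold change -0.18 ± 0.09 SE, adjusted p = 0.243). The KO ranges were 215 to 261 CPM in Control and 217 to 252 CPM in T1D (-0.06 ± 0.08 SE). Itgb5, a vitronectin receptor subunit, had a single high WT T1D value of 150 CPM (A1764), with 78.9 to 106 CPM in all other mice. Itgb6, an epithelial subunit, had a log2 fold change of -0.83 with an SE of 0.72, at 0 to 3.28 CPM.

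Among the laminin-binding subunits Itgb4, the partner of α6 in epithelium and Schwann cells, had the lowest p. It was at 2.08, 4.44, 5.82, 3.04, and 6.67 CPM in WT Control and 2.15, 3.23, and 4.73 CPM as the lowest, median, and highest of WT T1D, entirely within the Control range (log2 fold change -0.38 ± 0.26 SE, adjusted p = 0.394). Itga6 (α6) was at 39.4 to 58.1 CPM in WT Control and 32.3 to 76.9 CPM in WT T1D (0.17 ± 0.16 SE, adjusted p = 0.569), again with A3905 lowest and A1758 highest. Leaving out A3905 and A3906 gave 0.39 (unadjusted p = 0.00277, adjusted p = 0.289). Itga3 and Itga7, the α subunit of muscle, were under 10 CPM in all mice. Itga7 had a log2 fold change of 0.24 with an SE of 0.34.

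The laminin α chains were all lower in WT T1D by estimate, with log2 fold changes from -0.62 to -0.31. Only Lama4 had an unadjusted p under 0.05. It was at 19.8, 25.8, 30.7, 21.6, and 25.9 CPM in WT Control and at 14.9, 18.7, and 24.7 CPM as the lowest, median, and highest of WT T1D, with 4 of 6 below all Controls (-0.37 ± 0.15 SE, adjusted p = 0.137). In KO mice the Control range was 16.9 to 25.5 CPM and the T1D range 16.3 to 24.8 CPM (-0.09 ± 0.14 SE, adjusted p = 1). Endothelial markers, 8 genes with none at 0 in any library, summed to 389 to 531 CPM in WT Control and 348 to 469 CPM in WT T1D, and their part in the result was not tested.

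Lama5, the other endothelial α chain, did not follow A3905 and A3906. It was at 10.2, 9.87, 13.2, 8.29, and 13.1 CPM in WT Control and at 6.14, 8.86, and 11.3 CPM as the lowest, median, and highest of WT T1D, and the highest WT T1D value was in A3906 (log2 fold change -0.31 ± 0.16 SE, adjusted p = 0.257). With both mice removed it was -0.43 (unadjusted p = 0.0232, adjusted p = 0.376). Lama1, Lama2 (the muscle and nerve α chain), and Lama3 were under 10 CPM in all mice. Lama1 and Lama2 were lowest in A3905 and A3906, at 0.849 and 1.04 CPM and at 2.04 and 1.62 CPM.

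Of the β and γ chains, Lamb2 and Lamc1, which join in laminins of vessel, muscle, and nerve, had unadjusted p values under 0.05. Lamb2 was at 64.8, 87.8, 93.9, 71.7, and 109 CPM in WT Control and at 29.4, 67.5, and 82.8 CPM as the lowest, median, and highest of WT T1D. A3905 and A3906 had 33.3 and 29.4 CPM, and the other 4 had 55.3 to 82.8 CPM, which overlapped the Controls (log2 fold change -0.51 ± 0.22 SE, adjusted p = 0.173). In KO mice it was 57.7, 71.3, and 75.7 CPM in Control and 56.3, 71.1, and 97.6 CPM in T1D (0.13 ± 0.21 SE, adjusted p = 1). The interaction was 0.64 ± 0.30 SE (unadjusted p = 0.0445, adjusted p = 0.484).

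Lamc1, the γ chain of most laminins, was at 57.0, 72.2, 80.4, 67.0, and 78.6 CPM in WT Control and at 34.8, 58.9, and 71.0 CPM as the lowest, median, and highest of WT T1D. Here too A3905 and A3906 were lowest, at 34.8 and 37.7 CPM, and the others overlapped the Controls (-0.37 ± 0.16 SE, adjusted p = 0.164). KO mice had 46.6 to 69.2 CPM in Control and 49.5 to 66.6 CPM in T1D (0.01 ± 0.15 SE, adjusted p = 1). Removing them gave -0.20 for Lamb2 and -0.15 for Lamc1 (adjusted p = 0.673 and 0.694). Lamb1, Lamb3, and Lamc3 had log2 fold changes of -0.30, 0.0060, and -0.40.

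**Figure D4:**
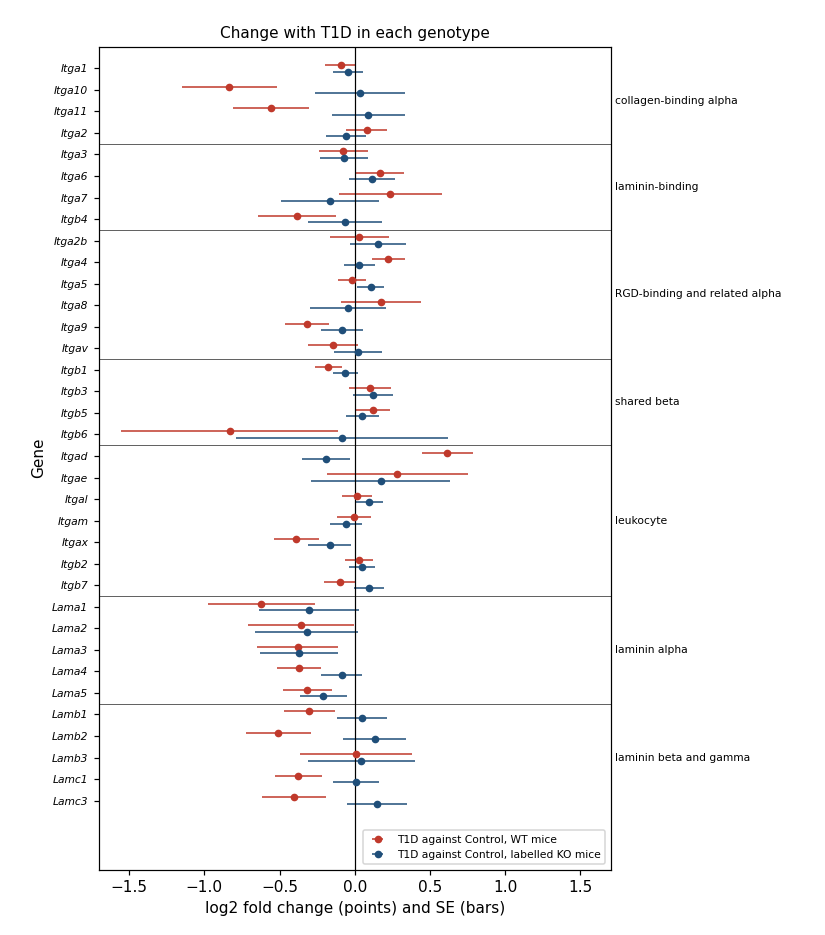
Log2 fold change with T1D (points) and its SE (bars) for the 35 tested genes, by role, in WT mice (red) and in mice labelled KO (blue). The WT points of Itga10 at -0.83 and Itgad at 0.61 had the lowest p in each direction, and all KO points lie between -0.37 and 0.17.

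The second question was what T1D changed in the KO groups. There 0 of 35 members passed edgeR's test, as did 0% of all genes, and 0 had an unadjusted p under 0.05, against 3.15% of all genes. DESeq2 and limma on log2(TPM + 1) also called 0 members. The median log2 fold change was 0.0093 for the members and -0.039 for the laminins. The lowest unadjusted p was that of Lama3 (-0.37 ± 0.26 SE, unadjusted p = 0.167). The 5 laminin α chains were all lower by estimate in KO as well, with a median of -0.30, whereas the 5 β and γ chains were all higher by estimate, with a median of 0.048.

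The difference between genotypes in the T1D change was tested as an interaction, which shares its samples with both T1D comparisons. No member passed edgeR's adjusted threshold, nor did any gene (0% of all genes), and DESeq2 and limma also called 0 members. At an unadjusted p under 0.05 the members were Itgad and Lamb2 (5.71%, against 10.2% of all genes). That count was 1 to 5 when mice were left out singly, and the share of all genes was then 6.57% to 13.7%. All 10 laminins had a positive interaction estimate with a median of 0.30, against 0.0059 over all genes. Without A3905 and A3906 the count was 7 of 10 with a median of 0.16. The laminins already differed by estimate between the Control groups. There 9 of 10 were lower in KO than in WT, with a median of -0.25. In T1D mice 4 of 10 were lower in KO, with a median of 0.060.

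Between genotypes in Control mice no member passed the adjusted edgeR test, which 0.0278% of all genes did. By estimate 27 of 35 members were lower in KO Control (77.1%, against 50.1% of all genes). Itga5 (-0.22 ± 0.09 SE, adjusted p = 0.999) and Lama5 (-0.36 ± 0.16 SE, adjusted p = 0.999) had an unadjusted p under 0.05, 5.71% of members against 4.8% of all genes. In T1D mice no member passed either, against 0.0905% of all genes, and Itgad and Itga10 had an unadjusted p under 0.05, 5.71% of members against 17.1% of all genes. DESeq2 called 0 members in Control mice and Itgad in T1D mice (adjusted p = 0.0201), where it called 239 of all 14364 genes, and limma called 0 members in both. Among A36 to A39 mice alone Itga2b, Itga6, and Itgad passed between genotypes in T1D mice, as did 1538 of all 14364 genes in that fit. The members on chromosome 11 with Sarm1 were Itgae, Itga3, Itga2b, Itgb3, and Itgb4, at 5.4 to 37.5 Mb from it, and none of them had an unadjusted p under 0.05 between genotypes when all mice were used.

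The plot against marker sums sets 4 members beside the osteoblast and erythroid content of each library. Itga10, Itga11, and Lamb2 were low where the osteoblast sum was low and the erythroid sum high, and Itgad was high there. In the erythroid covariate fit no member had an adjusted p under 0.05 for T1D in WT, and 1 of 35 had an unadjusted p under 0.05. In that fit no gene of the whole table passed, and 3.9% of all genes had an unadjusted p under 0.05. The erythroid score was 10.243 to 10.767 in WT Control and 10.777 to 11.6 in WT T1D, without overlap. The fit therefore cannot tell the score from T1D in WT.

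**Figure D5:**
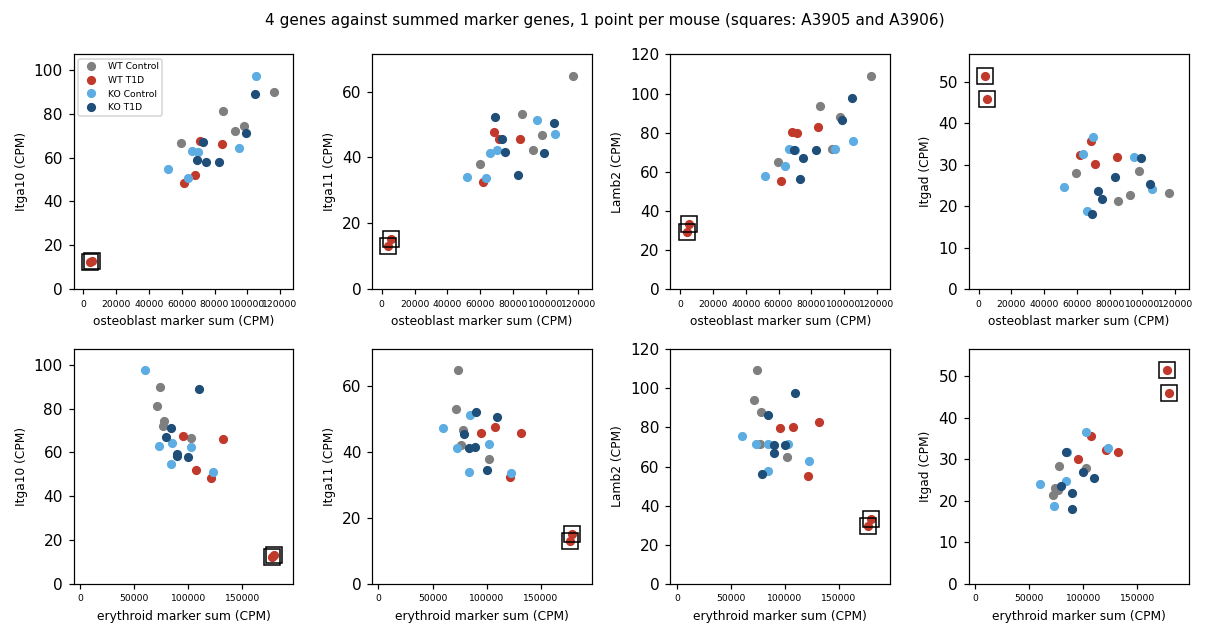
CPM of Itga10, Itga11, Lamb2, and Itgad (vertical axes) against the summed CPM of osteoblast markers (upper row) and erythroid markers (lower row), with 1 point per mouse colored by group. Squares mark A3905 and A3906, which lie alone at osteoblast sums of 5421 and 4007 CPM and erythroid sums of 179380 and 177070 CPM.

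Genes around the integrins were taken from 4 lists. Of 9 basement membrane partners, 6 had lower values at an unadjusted p under 0.05 in WT T1D, as did 11.2% of all genes. Of the 9, 0 passed the adjusted edgeR test, which 2.33% of all genes passed. Their median was -0.38, beside -0.37 for the laminins. Col4a2 (-0.47 ± 0.16 SE, adjusted p = 0.0912) and Col4a1 (-0.51 ± 0.17 SE, adjusted p = 0.0925), the type IV collagen chains of basement membranes, had the lowest p. DESeq2 called 2 of the 9, Col4a1 and Hspg2 (the heparan sulfate proteoglycan perlecan), and 1002 of all 14364 genes. Limma on log2(TPM + 1) called 6, all lower, and 5154 of all genes, of which 5071 were lower. Without A3905 and A3906, 1 of 9 was lower at an unadjusted p under 0.05, against 807 of all 14364 genes.

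Of 10 ligands in bone matrix and plasma, 2 passed the adjusted edgeR test in WT T1D, both lower. Of all genes 2.33% passed, 119 lower and 215 higher. DESeq2 called these 2 ligands and Fbn1 (fibrillin-1), and 1002 of all 14364 genes. Limma on log2(TPM + 1) called 6, all lower, and 5154 of all genes, of which 5071 were lower. Ibsp, bone sialoprotein and an αvβ3 ligand of mineralized matrix, fell from 1325 ± 269 CPM (SD, n = 5) to 773 ± 197 CPM (n = 6), a log2 fold change of -0.78 ± 0.15 SE (adjusted p = 0.0236). Tnc, tenascin-C and a ligand of α9β1, fell from 924 ± 194 CPM to 649 ± 102 CPM (-0.51 ± 0.13 SE, adjusted p = 0.0494). These calls, and that of Madcam1, were lost without WT Control mouse A3767 or A3907, and with only the WT groups in the fit. They were also lost with the erythroid score in the fit, a score that did not overlap between the WT groups. In each of these fits 0 genes of the whole table passed by edgeR. With A3903, A3904, A3905, or A3906 left out singly, 3 to 16 genes of the whole table passed. With any mouse not named so far left out, 30 to 1264 passed. Whether Ibsp, Tnc, and Madcam1 were among the genes that passed in these single-mouse fits is not given here. Without A3905 and A3906 the sizes were -0.62 for Ibsp (adjusted p = 0.143) and -0.48 for Tnc (adjusted p = 0.304). In KO mice they were -0.012 ± 0.14 SE and -0.11 ± 0.13 SE (adjusted p = 1 for both).

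Between genotypes, Vtn was the only gene of the 4 lists that passed edgeR's test, and it was higher in the mice labelled KO. Vtn encodes vitronectin, a plasma and matrix ligand of αvβ3 and αvβ5. It was at 1.63 ± 0.479 CPM in WT Control and 16.7 ± 3.78 CPM in KO Control (log2 fold change 3.35 ± 0.32 SE, adjusted p = 1.79e-06), and at 1.54 ± 1.06 CPM in WT T1D and 16.3 ± 2.86 CPM in KO T1D (3.40 ± 0.30 SE, adjusted p = 3.69e-07). No WT library reached the KO range, and DESeq2 and limma on log2(TPM + 1) also called it in both comparisons. Vtn lies at chr11:78499120-78502325 (GRCm38.p6), 1303 bases beyond the end of Sarm1, and the part of this position in the difference was not tested. In T1D mice DESeq2, which called 239 of all 14364 genes, also called Madcam1 lower in KO. Madcam1 passed the count filter only through WT T1D. Limma called Madcam1 lower and Ibsp, Cdh1, and Bcar1 higher, but 1134 of the 1166 genes it called were higher. On that scale the median of all genes was itself higher by 0.17 in log2. The adjusted p by edgeR was 0.187 for Ibsp, 0.202 for Cdh1, and 0.182 for Bcar1. T1D did not move Vtn past the threshold in WT (-0.085 ± 0.34 SE, adjusted p = 0.914) or in KO (-0.033 ± 0.26 SE, adjusted p = 1).

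Of 6 leukocyte integrin ligands, 1 passed by edgeR in WT T1D, against 2.33% of all genes. It was Madcam1, which binds α4β7. Madcam1 passed the count filter only through WT T1D, the group where it was high, so its calls are description and not support. DESeq2 called 3 of the 6, Madcam1 and Vcam1 higher and Icam1 lower, and 1002 of all 14364 genes. Limma on log2(TPM + 1) called Madcam1 higher and Icam1 lower, and 5154 of all genes, of which 5071 were lower. Madcam1 was at 0 to 0.169 CPM in WT Control and 0.333 to 2.55 CPM in WT T1D (adjusted p = 0.0209), with A3905 highest at 2.55 CPM, and at 0 to 0.103 CPM in KO Control and 0 to 0.431 CPM in KO T1D. No fold is given because its Controls were near 0, and without A3905 and A3906 its adjusted p was 0.143. Vcam1, the ligand of α4β1 and α9β1, was at 278 ± 13.6 CPM in WT Control and 355 ± 50.3 CPM in WT T1D (0.35 ± 0.10 SE, adjusted p = 0.0545). Icam1, a ligand of αLβ2 and αMβ2, was at 23.8 ± 1.44 CPM in WT Control and 18.2 ± 3.67 CPM in WT T1D (-0.39 ± 0.12 SE, adjusted p = 0.0707). The receptor genes Itga4 and Itgb7 had log2 fold changes of 0.22 and -0.10 with unadjusted p values over 0.05.

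Of 26 intracellular adapters and activators, 25 were tested and 0 passed the adjusted edgeR test in WT T1D, against 2.33% of all genes. Bcar1, a docking protein of focal adhesions, was lower (-0.34 ± 0.15 SE, adjusted p = 0.184) and Rap1a, the GTPase that activates integrins through talin, was higher (0.19 ± 0.08 SE, adjusted p = 0.188) at an unadjusted p under 0.05. Of all genes 11.2% were lower and 11% were higher at that unadjusted threshold. DESeq2 called 0 of the 25. Limma on log2(TPM + 1) called 11, all lower, and 5154 of all 14364 genes, of which 5071 were lower. The median of this list was -0.0028, beside -0.011 over all genes. In KO mice no gene of the 4 lists passed the adjusted test by edgeR, DESeq2, or limma, nor did any gene of the whole table. By edgeR 1 gene of the lists, Madcam1, had an unadjusted p under 0.05, against 3.15% of all genes.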

How the data were processed

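RNA from bone of 23 mice was sequenced, 1 library per mouse, with oligo dT selection and paired-end reads on the DNBSEQ platform. SOAPnuke was used to filter reads, and HISAT and Bowtie2 placed them on GRCm38.p6, per the study's methods and the submitters' processing notes. The authors deposited expected counts per gene from RSEM, rounded to whole numbers and not normalized. They also deposited TPM values from the sequencing provider, which are relative to all RNA of a library. RSEM shares reads between similar genes by estimate, so paralogs such as Itgam, Itgax, and Itgad may exchange some reads.

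Genes that reached 10 counts in 5 or more libraries were tested with edgeR 4.0.16 in R 4.3.3 (TMM, quasi-likelihood, 1 mean per group over all 23 mice). P values were adjusted over 14364 genes by the Benjamini-Hochberg method with a threshold of 0.05, two-sided. Groups came from the sample labels and mouse IDs were not shared between groups. The 55 pairs of mice in the same group all differed by more than sampling noise, with a chi-square per gene of 10.9 to 187. Depth limited genes with few counts.

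CPM used TMM library sizes. Marker sums added the CPM of listed genes, and marker scores used as covariates were the mean of log2(CPM + 0.5). DESeq2 1.42.0 and limma 3.58.1 on log2(TPM + 1) or log2(TPM + 0.1), on which a fold change understates low genes, were alternatives, with other normalizations, filters, mice, and covariates. The main edgeR fit, DESeq2, and limma on log2(CPM + 1) were tested on simulated counts. Limma on TPM and the other alternatives were not. The figures were drawn with matplotlib 3.10.9.

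Members were described in full if they had an unadjusted p under 0.05 for T1D in WT, the interaction, or either genotype comparison, or the lowest p for T1D in WT in their role group. For other lists the 2 genes with the lowest p were named. Genes named outside these rules, such as Itga2b, Itgb3, Itgav, Itga6, Hspg2, Fbn1, Icam1, and Vtn, were chosen after their values were seen. The members and lists were chosen with earlier results of these data known.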

Additional observations from a re-analysis of the deposited data

Results flagged for a closer look

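In KO Control, mouse A3766 had 97.43 CPM of Itga10, far above the other 5 mice of its group at 50.87 to 64.35 CPM. It was the only case among 48 gene and group combinations examined for a mouse far from its group, and chance gives such a case in about 1 of 20.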

How the results depend on the processing

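No paired analysis was possible because no mouse ID was shared between groups. The number of members past the adjusted threshold was 0 in each of the 5 comparisons and stayed at 0 under every alternative for T1D in KO mice, the interaction, and KO against WT in Control mice. For T1D in WT mice it became 1 (Itgad each time) with DESeq2, with a minimum of 50 counts, and with the muscle marker score as a covariate. Of all genes 1002 of 14364, 466 of 12470, and 512 of 14364 passed in those fits. It became 16 with limma on log2(TPM + 1) and 16 on log2(TPM + 0.1), where 5154 and 5173 of all 14364 genes passed. Among A36 to A39 mice alone it became 8, where 2205 of all 14364 passed. It ranged from 0 to 2 when mice were left out singly, where 0 to 1264 of all 14364 passed. For KO against WT in T1D mice it became 1 with DESeq2 (Itgad), where 239 of all 14364 genes passed, and 3 among A36 to A39 mice alone, where 1538 passed.

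Signs turned in a few cases. Among A36 to A39 mice alone Itga5 had a log2 fold change of 0.047 for T1D in WT, and Lama5 an interaction of -0.12. With the erythroid score in the fit the T1D changes in WT were 0.063 for Itga9, 0.013 for Itga10, 0.19 for Itga11, 0.030 for Lamb2, 0.084 for Lamc1, 0.064 for Itga5, and 0.056 for Itgb1. The interactions in that fit were -0.10 for Itga9, -0.022 for Itga11, -0.054 for Itgax, -0.013 for Lamc1, and -0.090 for Itgb1. Leaving out a mouse in turn moved Itga5 for T1D in WT between -0.052 and 0.029. The cause of these changes was not tested. The erythroid score did not overlap between the WT groups, so that fit cannot tell the score from T1D in WT.

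The number of genes called for T1D in WT was 334 by edgeR, 1002 by DESeq2, 5154 by limma on log2(TPM + 1), 88 without a count filter, 2205 among A36 to A39 mice alone, and 0 without A3905 and A3906, with only the WT groups in the fit, or with the erythroid score. The 334 were 119 lower and 215 higher, and the 266 called with total counts in place of TMM were 190 lower and 76 higher. Genes with group means under 1 CPM, such as Itgae, Itgb8, and Lamb3, were limited by depth. A3905 and A3906 are both WT T1D, so what sets them apart and T1D in WT cannot be told apart in these libraries.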
